A study of Mus musculus with 10 samples.

Results

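The FGF pathway genes examined in *Grem1*-traced cells of the embryonic mouse brain were 3 receptor genes (*Fgfr1*, *Fgfr2* and *Fgfr3*), the ligand gene *Fgf15*, 3 Sprouty genes (*Spry1*, *Spry2* and *Spry4*) and 3 ETS transcription factor genes (*Etv1*, *Etv4* and *Etv5*). They were found by gene symbol among the 14300 genes of the deposited table of read counts, and all 10 were present. Relative to TdTomato− cells, 9 of the genes were lower in TdTomato+ cells, *Fgf15* to a few reads per library, and *Spry2* was higher. *Fgfr2* stood apart in another way. Its level in TdTomato+ cells was 8.03% to 52.8% of the TdTomato− level, depending on the mouse, and the mice with the lowest TdTomato+ levels of *Fgfr2* were also lowest for *Fgfr3*, *Spry4*, *Etv4* and *Etv5*, an order that 19.7% of all genes had and the other 5 did not. The genes were chosen with the results of this contrast known, so their differences between the populations are given as a description, with standard errors. The calls of the test are counted beside those over all genes, and of the 10 genes a p-value is printed only for *Etv5*, whose call depends on the fit.

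Fibroblast growth factors bind receptor tyrosine kinases together with heparan sulfate, and adaptor proteins pass the signal through Ras to the kinase ERK. ERK activity raises the transcription of ETS factors of the PEA3 class, which *Etv1*, *Etv4* and *Etv5* encode, and of inhibitors such as the Sproutys and the phosphatase Dusp6, which dampen the pathway in turn. In the developing forebrain, FGF signaling is known for maintaining radial glial progenitors and for patterning the cortex from its frontal end.

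RNA was measured by polyadenylated RNA sequencing in *Grem1creERT; Rosa26LSLTdtomato* reporter embryos on the C57BL/6J background, in which *Grem1* sequences drive a Cre recombinase that needs tamoxifen to act and that then switches on TdTomato for good. Both populations were sorted as live cells from the same tamoxifen-treated embryos 24 h after the drug, so there was no untreated or Cre-negative library. The TdTomato+ population (5 libraries, numbered by mouse from 2 to 6) holds cells in which Cre was active at induction and their progeny, and the TdTomato− population (5 libraries, same numbers) holds the other live cells. The numbers were taken as those of the 5 mice sorted, and the labels do not say more of them. The sample descriptions name the brain as the tissue and the methods name the dissected dorsal telencephalon.

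Total counts were 23429034 to 27286180 per library. *Grem1* was at 60.7 to 68.4 CPM (counts scaled to library size, after TMM normalization) in TdTomato+ libraries and at 5.0 to 7.0 CPM in TdTomato− libraries. The summed level of 8 cortical excitatory neuron markers was 7309 to 8818 CPM in TdTomato+ and 1920 to 2669 CPM in TdTomato− libraries, whereas 8 radial glia markers summed to 128 to 176 CPM in TdTomato+ and 1572 to 1848 CPM in TdTomato− libraries. Subpallial and GABAergic markers (8 of 8 measured) were also higher in TdTomato− libraries, at 1479 to 1838 CPM against 53.3 to 85.5 CPM, as were those of oligodendrocyte precursors (4 of 5 measured), at 43.0 to 64.3 CPM against 2.03 to 3.83 CPM. Erythroid markers (5 of 6 measured) were at 74.2 to 258 against 1.18 to 25.7 CPM, microglia markers (4 of 5) at 10.9 to 53.0 against 0.680 to 1.4 CPM, pericyte markers (3 of 4) at 9.58 to 15.5 against 0.927 to 2.57 CPM, and the choroid plexus marker (1 of 5) at 9.79 to 15.3 against 0.226 to 1.94 CPM. Intermediate progenitor markers (5 of 5) were at 826 to 1052 against 63.5 to 117 CPM, and Cajal-Retzius markers (4 of 4) at 200 to 376 against 124 to 150 CPM. Meningeal fibroblast markers (2 of 5) were at 1.88 to 5.29 against 0.564 to 1.09 CPM. The TdTomato− population thus held transcripts of many cell types, and the part of these cell types in the differences below was not tested. In bulk libraries, fewer cells of a type and less RNA per cell cannot be told apart.

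The 250 bases before a RefSeq transcription start of 5 genes are shown because these genes carry the results that follow. *Fgfr2* and *Etv5* varied between mice by far more than their counting error, *Etv1* had the most even decrease of the 3 ETS factors, and *Spry2* and *Dusp6* were the feedback inhibitors with the largest increases in TdTomato+ cells. The sequences are written 5′ to 3′ on the strand of the gene, on GRCm38, and hold no annotated exon. Capitals mark AGGAAG, a core recognized by PEA3-class ETS factors, or its reverse complement CTTCCT.
Fgfr2 (chr7:130266809-130267058, minus strand): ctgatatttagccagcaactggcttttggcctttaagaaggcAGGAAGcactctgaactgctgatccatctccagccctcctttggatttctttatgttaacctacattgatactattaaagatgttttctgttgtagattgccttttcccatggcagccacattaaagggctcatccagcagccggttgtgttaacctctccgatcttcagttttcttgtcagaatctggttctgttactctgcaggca
Etv5 (chr16:22438369-22438618, minus strand): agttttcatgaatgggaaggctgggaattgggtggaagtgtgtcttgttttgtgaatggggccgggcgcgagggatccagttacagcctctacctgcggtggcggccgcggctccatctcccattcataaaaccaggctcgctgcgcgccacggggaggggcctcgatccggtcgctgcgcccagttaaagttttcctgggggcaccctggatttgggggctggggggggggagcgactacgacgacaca
Etv1 (chr12:38779832-38780081, plus strand): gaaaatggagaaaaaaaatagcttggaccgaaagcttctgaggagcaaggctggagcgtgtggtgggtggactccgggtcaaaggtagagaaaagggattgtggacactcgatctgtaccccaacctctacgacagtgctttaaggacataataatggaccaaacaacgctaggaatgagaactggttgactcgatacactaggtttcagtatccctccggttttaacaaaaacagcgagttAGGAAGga
Spry2 (chr14:105896820-105897069, minus strand): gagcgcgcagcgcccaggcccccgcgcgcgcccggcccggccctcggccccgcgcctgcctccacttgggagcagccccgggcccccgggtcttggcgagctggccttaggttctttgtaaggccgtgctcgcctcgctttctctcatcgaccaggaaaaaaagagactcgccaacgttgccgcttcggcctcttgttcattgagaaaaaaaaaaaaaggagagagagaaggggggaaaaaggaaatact
Dusp6 (chr10:99262981-99263230, plus strand): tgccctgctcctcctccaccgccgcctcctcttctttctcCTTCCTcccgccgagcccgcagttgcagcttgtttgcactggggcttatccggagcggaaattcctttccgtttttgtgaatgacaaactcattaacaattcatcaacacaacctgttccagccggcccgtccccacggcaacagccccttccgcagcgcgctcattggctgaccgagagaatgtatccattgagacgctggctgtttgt
A match lay 208 bases before the start of *Fgfr2*, 8 bases before that of *Etv1* and, on the opposite strand, 210 bases before that of *Dusp6*. The windows of *Etv5* and *Spry2* held none. Of all 32851 RefSeq windows of the same length, 29.5% held the motif on either strand, so a match is common and describes the letters alone. Windows were at hand for 6 of the 10 genes. Those of *Fgfr3* and *Spry1*, and another window each of *Etv1* and *Etv5*, overlap annotated exons and are not shown. These held no match either, so the match of *Etv1* lies before only 1 of its starts.

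The comparison was made in edgeR by its quasi-likelihood test, pairing the libraries of each mouse. A gene was called where its Benjamini-Hochberg adjusted p, taken over the 14300 genes, did not exceed 0.05. Positive log2 fold changes mean a higher level in TdTomato+ cells. All 10 genes were called, as were 77.3% of all genes. Of the 10, 9 were called lower, against 39.4% of all genes, and 1 was called higher, against 37.9%. With an added threshold of 2 on the absolute log2 fold change, *Fgf15*, *Etv4*, *Fgfr3* and *Etv1* were called lower (4 of 10, against 9.74% of all genes) and none was called higher (against 3.2%). Since the genes were chosen on this contrast, and *Fgf15* entered the table through the TdTomato− libraries alone and so had to differ, these counts support nothing and are given to describe the set. The median log2 fold change was −1.89 over the 10 genes and −0.0063 over all genes. Each gene differed in the same direction in all 5 mice, and the levels of the populations did not overlap for 8 genes that were lower (32.4% of all genes) and for *Spry2*, which was higher (29.1%). *Etv5* was the gene whose populations overlapped.

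**Figure D1:**
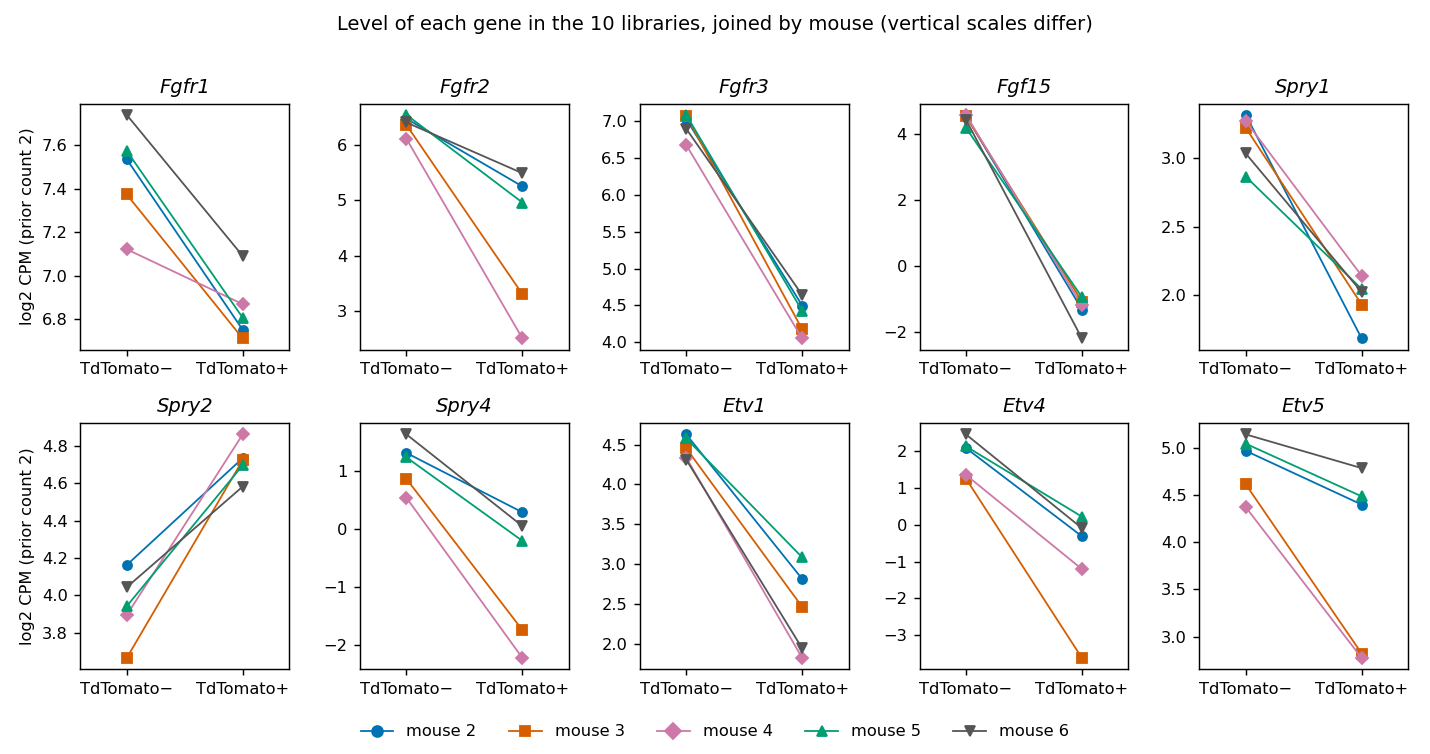
Level of each of the 10 genes in log2 CPM (prior count 2, vertical axis, scales differ between panels) in the TdTomato− and TdTomato+ library of each mouse, joined by a line. All lines fall except those of *Spry2*, and the TdTomato+ libraries of mice 3 and 4 lie below those of the other mice for *Fgfr2*, *Fgfr3*, *Spry4*, *Etv4* and *Etv5*.

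Among the receptors, *Fgfr1* (ENSMUSG00000031565, GRCm38 chromosome 8 from 25513654 to 25575718, plus strand) had the highest mean level per kilobase in both populations. Its levels in TdTomato− libraries were 186, 166, 139, 191 and 214 CPM in mice 2 to 6, and those in TdTomato+ libraries were 108, 105, 117, 112 and 136 CPM. All TdTomato+ values lay below all TdTomato− values, with the narrowest gap between the TdTomato+ library of mouse 6 and the TdTomato− library of mouse 4. Its log2 fold change was −0.62 (s.e. 0.07), the smallest decrease of the 9 genes that were lower.

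*Fgfr3* (ENSMUSG00000054252, chromosome 5 from 33721674 to 33737068, plus strand), which marks radial glia in the developing cortex, was at 131, 135, 103, 136 and 119 CPM in the TdTomato− libraries of mice 2 to 6 and at 22.5, 18.0, 16.5, 21.4 and 24.9 CPM in the TdTomato+ libraries. The populations were far apart in every mouse and the libraries within each population were close to each other. Its log2 fold change was −2.60 (s.e. 0.08), the steepest fitted decrease among *Fgfr1*, *Fgfr2* and *Fgfr3*, although *Fgfr2* fell further in mice 3 and 4. An antisense gene overlaps 13.9% of the exonic length of *Fgfr3*, and which strand column was counted is not given in the sources used here.

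*Fgfr2* (ENSMUSG00000030849, chromosome 7, minus strand) was at 89.3, 82.4, 69.3, 93.7 and 85.1 CPM in TdTomato− libraries, and at 38.0, 9.76, 5.56, 31.0 and 44.9 CPM in TdTomato+ libraries. The TdTomato− libraries were alike, whereas the TdTomato+ libraries of mice 3 and 4 were well below the other TdTomato+ libraries. The fitted log2 fold change was −1.96, with the largest standard error of the 10 genes (0.36). The annotation gives the gene a span from 130162451 to 133123350, because 1 transcript reaches far upstream into *Ctbp2*, and 3.04% of its exonic length is shared with that gene.

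Per kilobase of exonic length, the mean TdTomato− level was 18.1±2.84 CPM for *Fgfr1*, 17.4±1.97 CPM for *Fgfr3* and 8.13±0.896 CPM for *Fgfr2* (mean±s.d., n = 5). The ranges of *Fgfr1* (14.1 to 21.6) and *Fgfr3* (14.3 to 19.0) overlapped, and *Fgfr2* lay below both (6.71 to 9.07). In TdTomato+ cells, the order by level per kilobase was *Fgfr1* (11.7±1.26 CPM), *Fgfr3* (2.88±0.476 CPM) and *Fgfr2* (2.50±1.68 CPM). There *Fgfr1* lay above both others, whereas the range of *Fgfr2* (0.539 to 4.35) enclosed that of *Fgfr3* (2.30 to 3.47), so these 2 levels did not differ beyond their spread.

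*Fgf15* (ENSMUSG00000031073, chromosome 7 from 144896531 to 144900953, plus strand) encodes a ligand of forebrain progenitors, the mouse counterpart of human FGF19. It was at 23.3, 23, 23.7, 18.1 and 21.4 CPM in the TdTomato− libraries of mice 2 to 6, from 456 to 666 counts. The TdTomato+ libraries held 7, 9, 8, 10 and 3 counts, or 0.136 to 0.435 CPM, so the transcript was near the counting floor of 3 reads in mouse 6 and few reads carried its level in the others. The log2 fold change was −6.04 (s.e. 0.17), which rests on these few reads. Before TMM scaling, as for all counts of libraries over 0.5 CPM given here, *Fgf15* exceeded 0.5 CPM in 0 of the 5 TdTomato+ libraries, so it entered the table through the TdTomato− libraries alone, and its call and its rank among the genes are no support. Antisense genes overlap 25.7% of its exonic length.

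The Sprouty proteins inhibit receptor tyrosine kinase signaling upstream of ERK and are induced by it. *Spry2* (ENSMUSG00000022114, chromosome 14 from 105891947 to 105896819, minus strand) was at 17.8, 12.6, 14.8, 15.3 and 16.4 CPM in TdTomato− libraries and at 26.5, 26.3, 29.0, 25.8 and 23.9 CPM in TdTomato+ libraries of mice 2 to 6. It was higher in the TdTomato+ library of every mouse, by 1.71-fold in the fit (log2 fold change 0.78, s.e. 0.09), and mice 3 and 4 had the largest ratios. *Spry1* (ENSMUSG00000037211, chromosome 3 from 37639947 to 37644598, plus strand) was at 9.89, 9.26, 9.58, 7.21 and 8.12 CPM in TdTomato− and at 3.13, 3.73, 4.33, 4.04 and 3.98 CPM in TdTomato+ libraries. Its direction was thus opposite to that of *Spry2* (log2 fold change −1.19, s.e. 0.13), and an antisense gene overlaps 24.4% of its exonic length.

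*Spry4* (ENSMUSG00000024427, chromosome 18) was rare, at 2.38, 1.73, 1.36, 2.26 and 3.00 CPM in TdTomato− libraries. The TdTomato+ libraries held 25, 5, 3, 18 and 21 counts, or 1.13, 0.217, 0.132, 0.783 and 0.949 CPM. Mice 3 and 4 had the lowest levels in both populations. Its log2 fold change was −1.83 (s.e. 0.30), and 3 of the 5 TdTomato+ libraries exceeded 0.5 CPM. Per kilobase, *Spry2* was the most abundant Sprouty in TdTomato+ cells, at 12.6±0.874 CPM, followed by *Spry1* at 1.32±0.155 CPM and *Spry4* at 0.135±0.0938 CPM, and none of these ranges overlapped.

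The PEA3-class factors were all lower in TdTomato+ cells. *Etv1* (ENSMUSG00000004151, chromosome 12 from 38779380 to 38870484, plus strand), later a marker of layer V neurons, was at 24.7, 21.8, 20.1, 23.8 and 19.8 CPM in TdTomato− and at 6.94, 5.42, 3.44, 8.39 and 3.75 CPM in TdTomato+ libraries of mice 2 to 6. The populations were clearly apart, and the lowest TdTomato+ levels were those of mice 4 and 6, an order that *Fgfr2* did not have. Its log2 fold change was −2.03 (s.e. 0.14), close to the fold change threshold.

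*Etv4* (ENSMUSG00000017724, chromosome 11 from 101769742 to 101785371, minus strand) had 107, 67, 62, 109 and 156 counts in TdTomato− libraries and 16, 0, 8, 25 and 19 counts in TdTomato+ libraries. These correspond to 2.32 to 5.44 CPM in TdTomato− cells and up to 1.09 CPM in TdTomato+ cells, of which 3 libraries exceeded 0.5 CPM. Mice 3 and 4 were again lowest in both populations. The log2 fold change was −2.71 (s.e. 0.35), and the 0 counts of mouse 3 allow a level of up to 7.10% of the TdTomato− level in that mouse (95% interval, counting error only).

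*Etv5* (ENSMUSG00000013089, chromosome 16 from 22381309 to 22439719, minus strand) was the most abundant factor of this class in both populations, per kilobase. It was at 31.3, 24.4, 20.7, 33.0 and 35.3 CPM in TdTomato− libraries and at 21, 6.98, 6.75, 22.3 and 27.5 CPM in TdTomato+ libraries. The libraries of mice 3 and 4 were the lowest of each population, and the TdTomato+ levels of mice 2, 5 and 6 reached those of the TdTomato− library of mouse 4. The log2 fold change was −0.92 (s.e. 0.21), and without the mouse as a block *Etv5* was no longer called (−0.77, edgeR adjusted p = 0.065).

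The ratio of the populations within each mouse varied to different degrees, and the s.d. of its log2 value was above that of the median gene (0.17) for all 10 genes. For *Fgfr3*, the TdTomato+ level was 17.2%, 13.3%, 16.1%, 15.7% and 20.8% of the TdTomato− level in mice 2 to 6, an s.d. of 0.23 on the log2 scale. For *Fgfr2* it was 42.6%, 11.8%, 8.03%, 33.1% and 52.8%. The 95% counting intervals of the *Fgfr2* ratio (exact binomial, counting error only) were 10.3% to 13.6% in mouse 3 and 6.65% to 9.63% in mouse 4, and 30.4% was the lowest bound in any other mouse, so the ratios of mice 3 and 4 lay apart from the rest by more than counting error. The s.d. of the *Fgfr2* log2 ratio was 1.19 over mice, against 0.087 from counting alone and a median of 0.17 over all genes. *Fgfr2* was singled out for this spread, so its place among all genes is a description. Of them, 0.608% (87 of 14300) varied at least as much, and 6 of the 9785 genes with a mean log2 CPM of at least 3, a level set after the data had been seen.

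The spread of *Fgfr2* lay in the TdTomato+ libraries. Its log2 CPM had an s.d. of 1.32 over TdTomato+ libraries, a value that 0.343% of genes reached, and of 0.17 over TdTomato− libraries, which 41.2% of genes reached. Relative to counting error, *Etv5* came next, with TdTomato+ levels at 67.3%, 28.6%, 32.7%, 67.8% and 78.0% of the TdTomato− level and an s.d. of 0.67, against 0.10 from counting. For *Spry4* the ratio was 47.5%, 12.6%, 9.71%, 34.7% and 31.7%, an s.d. of 0.76 against 0.54 from counting. The s.d. over mice was taken with a prior count of 2, which narrows it at low counts. The counting level was not, so the 2 values cannot be compared closely for *Spry4*, *Fgf15* and *Etv4*. The counting intervals of the *Spry4* ratio overlapped in all mice, narrowly between mouse 2 (from 28.6%) and mouse 4 (up to 30.9%). For *Fgf15* the s.d. was 0.54 against 0.56 from counting, and its intervals overlapped in all mice. For *Etv4* the s.d. was 1.16 against 0.98 from counting. The *Etv4* interval of mouse 3 (up to 7.10%) lay below those of mice 2, 5 and 6, whose lowest bound was 9.26%. For *Fgfr1* (0.22), *Spry2* (0.23), *Spry1* (0.31) and *Etv1* (0.42), the s.d. over mice was smaller than that of *Etv5*. *Fgfr1* and *Fgfr3* still varied beyond their counting levels of 0.035 and 0.072, and *Fgfr1* was at 83.9% of the TdTomato− level in mouse 4 against 58.0% to 63.8% in the others.

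**Figure D2:**
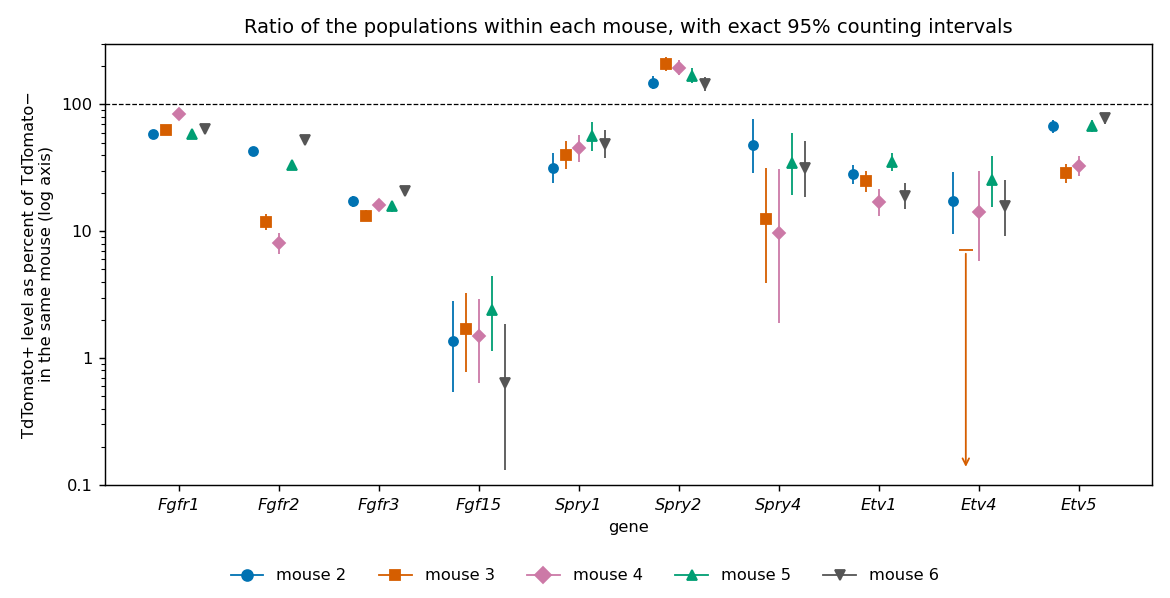
TdTomato+ level as a percentage of the TdTomato− level of the same mouse (log axis) for each of the 10 genes, with bars for the exact 95% interval of counting error and an arrow from the upper limit for *Etv4* in mouse 3, which had 0 counts. The ratios of *Fgfr2* run from 8.03% to 52.8% and those of *Etv5* from 28.6% to 78.0%, with mice 3 and 4 lowest, whereas those of *Fgfr3* stay between 13.3% and 20.8%.

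Mice 3 and 4 had the 2 lowest TdTomato+ levels of *Fgfr2*, *Fgfr3*, *Spry4*, *Etv4* and *Etv5*. These are 5 of the 10 genes, and 19.7% of all genes had these libraries lowest. The mice were picked by the TdTomato+ levels of *Fgfr2*, which is in this count by construction, and 4 of the other 9 genes shared the order. The same mice had the 2 lowest TdTomato− levels for 6 of the 10 genes (*Fgfr1*, *Fgfr2*, *Spry2*, *Spry4*, *Etv4* and *Etv5*), or 5 of 9 without *Fgfr2*, against 16.2% of all genes, and the lowest in both populations for 4 of the 10 (*Fgfr2*, *Spry4*, *Etv4* and *Etv5*), or 3 of 9, against 6.25%. None of the 10 genes had mice 3 and 4 as its 2 highest TdTomato+ libraries, against 19.6% of all genes. Among the 62 other FGF signaling genes measured, these mice were lowest in TdTomato+ cells for 12 (19.4%) and highest for 12 (19.4%), close to the shares over all genes. The order of mice was noticed in the data and has no test. By chi-square per degree of freedom, the TdTomato+ libraries of mice 3 and 4 were also the closest pair. Their value was 4.46, against 16.5 to 32.0 for either of them with mice 2, 5 or 6. The split of these mice from the others was thus not limited to the FGF genes.

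Marker levels were compared with this order. In TdTomato+ libraries, the 5 intermediate progenitor markers (5 of 5 measured) summed to 80.4, 73.9, 63.5, 98.4 and 117 CPM in mice 2 to 6, lowest in mice 4 and 3, and the 8 cortical excitatory neuron markers (8 of 8 measured) were highest there, at 8818 CPM in mouse 3 and 8468 CPM in mouse 4. The 8 subpallial and GABAergic markers were likewise highest there, at 79.0 and 85.5 CPM against 53.3 to 74.3 CPM in the others. The 8 radial glia markers summed to 128, 165, 142, 159 and 176 CPM, lowest in mouse 2, whose *Fgfr2* level was high. Erythroid markers (5 of 6 measured) reached 25.7 CPM in the TdTomato+ library of mouse 4 and 8.72 CPM in that of mouse 3, against 1.18 to 5.15 CPM in the others, but were lowest in TdTomato− libraries of these mice, at 103 and 74.2 CPM against 109 to 258 CPM. In TdTomato− libraries, microglia markers (4 of 5 measured) were at 10.9 and 15.3 CPM in mice 3 and 4 and at 39.1 to 53.0 CPM in the others, whereas they were at 0.680 to 1.4 CPM in all TdTomato+ libraries, with *C1qa* and *C1qb* at 0 to 3 counts. Oligodendrocyte precursor markers (4 of 5 measured) were at 2.03 to 3.83 CPM in TdTomato+ libraries and did not follow the order of *Fgfr2* there, but were lowest in mice 3 and 4 in TdTomato− libraries, at 43.0 and 45.1 CPM against 55.4 to 64.3 CPM. Cajal-Retzius markers (4 of 4 measured) were highest in the TdTomato− libraries of mice 3 and 4, at 335 and 376 CPM against 200 to 264 CPM, and were at 124 to 150 CPM in TdTomato+ libraries. Subpallial and GABAergic markers were lowest there in TdTomato− libraries, at 1496 and 1479 CPM against 1517 to 1838 CPM, as were pericyte markers, at 10.8 and 9.58 CPM against 13.9 to 15.5 CPM. Meningeal fibroblast markers (2 of 5 measured) were highest in those libraries, at 2.90 and 5.29 CPM against 1.88 to 2.50 CPM. The total counts of the TdTomato+ libraries of mice 3 and 4 were 24545138 and 23951001, within 1.5 times those of the others. The part of these markers in the spread of *Fgfr2* was not tested.

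The genes most like *Fgfr2* over the 10 libraries were those with the smallest root mean square difference in log2 CPM, after each gene was centered on its mean. Over the whole table these were *Spry4* (0.28), *Slc4a4* (0.30), *Nrp1* (0.34), *Npy* (0.35) and *Dkk3* (0.36). *Spry4* is thus the nearest of all genes to *Fgfr2* by this measure. Its TdTomato+ libraries held only 3 to 25 counts, however, and its distance is close to that of *Slc4a4*, so this first rank rests on few reads. *Nrp1*, which encodes a receptor for semaphorins and VEGF, was at 49.8, 15.1, 12, 59.5 and 67.0 CPM in the TdTomato+ libraries of mice 2 to 6. *Npy*, which encodes neuropeptide Y, was at 8.21, 0.998, 0.971, 3.35 and 4.61 CPM. *Slc4a4*, which encodes a bicarbonate transporter, was at 4.44, 1.21, 0.839, 5.35 and 6.96 CPM, and *Dkk3*, which encodes a Dickkopf family protein, at 5.26, 0.911, 0.574, 4.13 and 5.97 CPM. All 5 genes were lowest in mice 3 and 4, which the choice by likeness itself brings about.

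**Figure D3:**
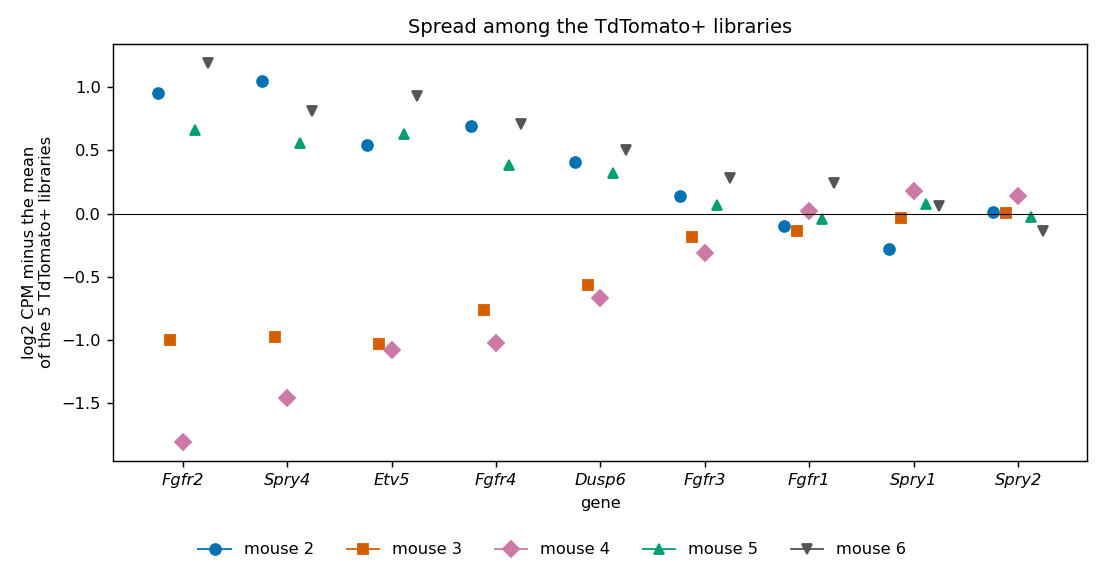
Deviation of each TdTomato+ library from the mean of the 5 TdTomato+ libraries in log2 CPM (vertical axis) for 9 FGF pathway genes chosen after their values were seen, with 1 symbol per mouse. Mice 3 and 4 lie below 0 for *Fgfr2*, *Spry4*, *Etv5*, *Fgfr4*, *Dusp6* and *Fgfr3*, while *Fgfr1*, *Spry1* and *Spry2* show little spread. Of the 62 other FGF signaling genes, as many had mice 3 and 4 highest (12) as lowest (12).

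Of 77 further genes listed for FGF signaling, 62 were in the table. The test called 23 of them higher (37.9% of all genes) and 24 lower (39.4%), and 15 were not called. Calls in the 2 directions were thus near the shares over all genes. Their median log2 fold change was −0.034, against −0.0063 for all genes. Past both thresholds, 3 were higher (3.2% of all genes) and 5 lower (9.74%), and 2 genes near the fold threshold, *Dusp6* and *Erf*, crossed it under some alternatives. The adjusted p of edgeR over all 14300 genes is given for the genes named, apart from *Fgf2*, *Fgf3*, *Fgf5* and *Fgf10*, and all values are for 5 mice. These lists too were drawn up with earlier results of the data known.

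Of the 17 other secreted ligands, 9 were in the table, with 4 called higher (37.9% of all genes), 3 lower (39.4%) and 2 not called. *Fgf18*, which takes part in cortical development, was at 12.6, 17.0, 17.1, 12.5 and 14.4 CPM in the TdTomato+ libraries of mice 2 to 6 and at 0.922 to 1.99 CPM in TdTomato− libraries, a log2 difference of 3.33 with s.e. 0.18 and adjusted p = 2.3e-07. *Fgf10* was at 4.22, 8.67, 8.48, 4.96 and 2.30 CPM in TdTomato+ and at 0.274 to 0.475 CPM in TdTomato− libraries (3.77, s.e. 0.30), and mice 3 and 4 had the highest TdTomato+ levels of both ligands. In the other direction, *Fgf3* had 61 to 77 counts in the TdTomato− libraries and 1 to 5 in the TdTomato+ libraries (log2 fold change −4.78, s.e. 0.33). *Fgf2* had 23 to 46 and 0 to 4 counts (−3.55, s.e. 0.37). All but the highest TdTomato+ libraries of these genes lay at or under the floor of 3 counts, so the fitted folds depend on few reads. *Fgf2* and *Fgf3* exceeded 0.5 CPM in 0 of the 5 TdTomato+ libraries and entered the table through the TdTomato− libraries alone, so they had to differ and their calls are no support. The same holds in the other direction for *Fgf5* (log2 fold change 1.64, s.e. 0.23) and *Fgf10*, which before TMM scaling exceeded 0.5 CPM in 0 and 1 of the 5 TdTomato− libraries and in all 5 TdTomato+ libraries. The fold change of *Fgf3* was −5.38 without mouse 3 and −3.97 with a prior count of 2, and that of *Fgf2* was −2.87 with that prior count.

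Of the 7 other receptor and co-receptor genes, 5 were in the table, with 2 called higher (37.9% of all genes), 2 lower (39.4%) and 1 not called. *Fgfr4*, the fourth FGF receptor, went opposite to *Fgfr1*, *Fgfr2* and *Fgfr3*. It was at 9.75, 3.51, 2.91, 7.87 and 9.85 CPM in TdTomato+ libraries of mice 2 to 6 and at 1.02, 0.726, 0.682, 1.11 and 1.57 CPM in TdTomato− libraries, a log2 difference of 2.67 with s.e. 0.18 and adjusted p = 1.1e-06. Mice 3 and 4 were lowest in both populations. *Fgfrl1*, which encodes a receptor-like protein without a kinase domain, averaged 19.6±0.873 CPM without TdTomato and 1.25±0.357 CPM with it (−3.97, s.e. 0.14, adjusted p = 1.9e-08).

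Adaptors and kinases carry the signal from receptor to nucleus. Of the 13 adaptors, 4 were called higher (37.9% of all genes), 7 lower (39.4%) and 2 not called, with log2 fold changes of −0.97 (*Shc1*, s.e. 0.10, adjusted p = 2.0e-05) to 1.35 (*Gab2*, s.e. 0.05, adjusted p = 2.4e-08). *Gab2*, which encodes a docking protein, averaged 53.8±3.09 CPM without TdTomato and 137±6.55 CPM with it. Of the 14 genes of the Ras-ERK cascade, 7 were called higher and 2 lower, against the same shares of all genes, and 5 were not called, and all lay within −0.57 (*Map2k1*, s.e. 0.06, adjusted p = 1.3e-05) and 0.64 (*Mapk3*, encoding ERK1, s.e. 0.07, adjusted p = 2.5e-05). The intracellular FGF homologous factors bind sodium channels and not FGF receptors. Of these 4, 2 were called higher (37.9% of all genes), 0 lower (39.4%) and 2 not called. *Fgf14* was at 0.81 (s.e. 0.12, adjusted p = 2.2e-04) and *Fgf11* at −0.0039 (s.e. 0.06, adjusted p = 0.96).

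Of 10 other feedback inhibitors, 8 were in the table, with 3 called higher (37.9% of all genes), 3 lower (39.4%) and 2 not called. *Dusp6*, which encodes a phosphatase of ERK, had the largest increase. It was at 73.7, 37.4, 34.8, 69.4 and 78.4 CPM in the TdTomato+ libraries of mice 2 to 6 and at 16.9, 12, 14.2, 11.4 and 16.0 CPM in TdTomato− libraries, a log2 difference of 2.00 with s.e. 0.17 and adjusted p = 4.3e-06, which falls just short of the threshold of 2. It was higher in the TdTomato+ library of every mouse, and within TdTomato+ cells mice 3 and 4 were lowest. *Il17rd*, which encodes the FGF antagonist Sef, had the largest decrease, averaging 21.7±1.82 CPM without TdTomato and 7.55±0.798 CPM with it (−1.52, s.e. 0.10, adjusted p = 9.2e-07). Inhibitors of the pathway differed in direction, with *Spry2* and *Dusp6* higher and *Spry1*, *Spry4* and *Il17rd* lower.

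Among 12 other ETS factor genes, 9 were in the table, with 1 called higher (37.9% of all genes), 7 lower (39.4%) and 1 not called. Without and with TdTomato, *Elk3* averaged 11±2.23 and 0.668±0.368 CPM (−4.06, s.e. 0.20, adjusted p = 1.3e-07), and *Erf*, which encodes an ETS repressor controlled by ERK, 44.7±4.07 and 10.8±1.71 CPM (−2.05, s.e. 0.10, adjusted p = 1.2e-07). *Ets2* was higher, at 18.1±2.07 against 11.1±0.677 CPM (0.69, s.e. 0.08, adjusted p = 2.9e-05). Endothelial markers (2 of 6 measured) were at 2.05 to 3.62 CPM in TdTomato− and at 0.678 to 1.91 CPM in TdTomato+ libraries, and their part in the level of *Elk3*, which vessels also express, was not tested.

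**Figure D4:**
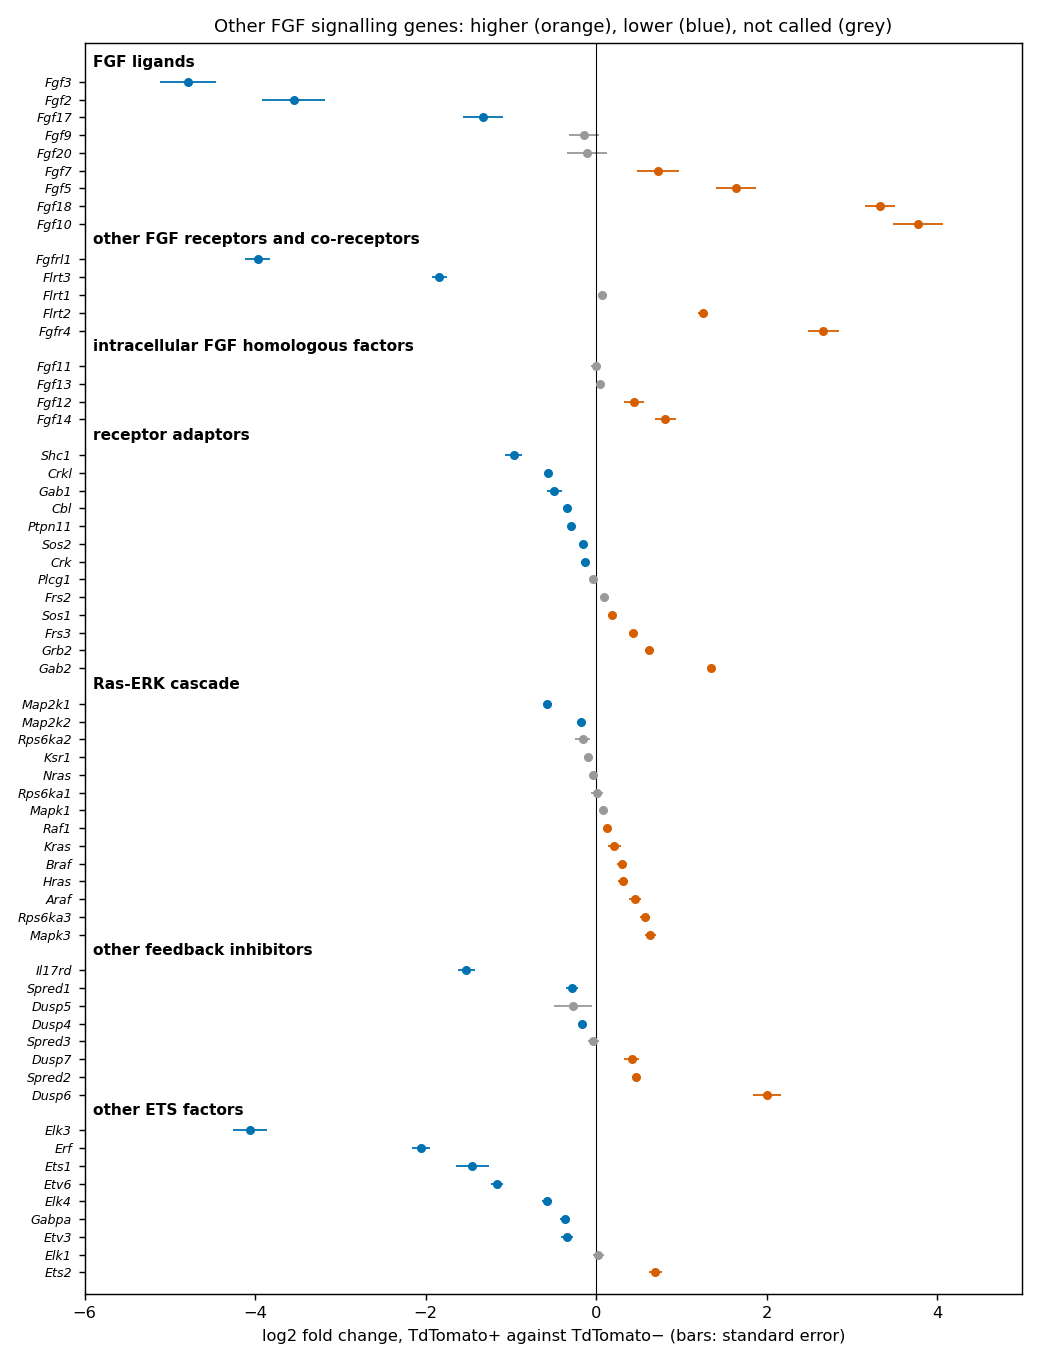
Log2 fold change of TdTomato+ against TdTomato− cells (horizontal axis, bars for the standard error, 5 mice) for the 62 other FGF signaling genes, grouped by role. Orange genes were called higher, blue genes lower and grey genes were not called at an adjusted p of 0.05. The receptors and co-receptors run from −3.97 to 2.67 and the Ras-ERK cascade from −0.57 to 0.64, and the outermost ligands, *Fgf3* and *Fgf10*, entered the table mainly through the population in which they are high.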

How the data were processed

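Reads were trimmed by the authors with Trim Galore and mapped to GRCm38 with STAR 2.4.2a, allowing 1 mismatch and unique hits only. The authors deposited the resulting gene counts, not normalized, for 10 libraries, and state that outliers were removed after a scaling plot. The annotation release and strand column are not given in the sources used here. Methods and sample descriptions differ in kit, RNA amount, sequencer and read length. All 14300 genes of the table exceed 0.5 CPM in at least 5 libraries. Genes below it are not analysed here.

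Counts were fitted with edgeR 4.0.16 in R 4.3.3 (filterByExpr, which removed 0 genes, TMM, glmQLFit, glmQLFTest, mouse number as a block as in the paired comparisons of the study). The study sorted both populations from the same mice, and libraries with the same number deviated together (correlation across genes 0.19 to 0.32, against −0.31 to 0.21 for different numbers). A standard error is the log2 fold change divided by the square root of F. Libraries of 1 population differed by more than sampling noise (chi-square per degree of freedom 4.46 to 32.0). In TdTomato+ cells, mice 3 and 4 were the closest pair (4.46). Each of them differed more from mice 2, 5 and 6 (16.5 to 32.0) than those mice did from each other (8.60 to 12.0). In TdTomato− cells, mice 3 and 4 were at 8.03, against 13.1 to 26.5 with the other mice, and mice 5 and 6 were closest (7.69). A level is the TMM-scaled CPM, log2 CPM used a prior count of 2, and a count of 3 was the floor (0.104 to 0.136 CPM). Symbols, positions and exonic lengths came from GENCODE M21, which named 14271 genes. Count intervals are exact binomial and cover counting error only. The fit was tested on simulated data.

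The genes, the lists and the thresholds were chosen with earlier results of these data known. Of the other pathway genes, those past both thresholds and the largest increase and decrease of each list are named, and the 5 genes nearest to *Fgfr2*. Alternatives tried were DESeq2 1.42.0, normalization by RLE or upper quartiles, other count filters, no block, a prior count of 2, robust estimation, TREAT and each mouse left out.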

Additional observations from a re-analysis of the deposited data

How the results depend on the processing

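No alternative reversed any of the 10 genes, and of their 130 alternative log2 fold changes, 129 kept the call. The exception was *Etv5* without the mouse as a replicate block (−0.77, edgeR adjusted p = 0.065), which left 9 of 10 genes called, and the unpaired fit changed no other call of the 10. Some of the alternatives could not change a call. Leaving out the count filter repeated the main fit, since that filter removed 0 genes. A prior count of 2 alters the fold and not the p. The number past both thresholds was 4 and ranged from 3 to 6 with 1 mouse left out. *Fgfr2* passed the fold change threshold of 2 without mouse 2 (−2.17), mouse 5 (−2.07) or mouse 6 (−2.26) and under DESeq2 (−2.07), and did not without mouse 3 (−1.71) or mouse 4 (−1.63). *Etv1* fell under it without mouse 4 (−1.91) or mouse 6 (−1.94). It also did so without the block (−1.98), where 3 genes passed both thresholds. *Spry4* passed it without mouse 2 (−2.08). TREAT against a log2 fold change of 1 called 6 of the 10 and 22.3% of all genes. The s.d. of the *Fgfr2* ratio was 0.951 to 1.33 with 1 mouse left out. Of the other genes named, the sign of *Fgf11*, which was not called in any fit, turned under RLE (0.0011), DESeq2 (0.00091), no block (0.00032) and without mouse 3 (0.010) or mouse 5 (0.043), with a range of −0.055 to 0.043 over mice left out. *Dusp6* passed the fold threshold under RLE (2.005), without the block (2.06) and without mouse 3 (2.09) or mouse 4 (2.17), and *Erf* fell under it without mouse 3 (−1.95). *Fgf3* moved from −4.78 to −5.38 without mouse 3 and to −3.97 with a prior count of 2, and *Fgf2* from −3.55 to −2.87 with that prior count. The number of other pathway genes called was 43 to 48, against 47. Over all genes, the same alternatives called 10215 to 11079, against 11056. Depth limits *Fgf15*, *Etv4* and *Spry4*, whose TdTomato+ libraries hold at most 25 counts.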
